A study of Homo sapiens with 4 samples.

Results

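The genes described here code for the proteins that license replication origins and build and run the replication fork, without the MCM helicase subunits. They were chosen by name as 44 genes: origin recognition, CDC6 and CDT1, GINS, the sliding clamp and its loader, the replicative polymerases and chromatin assembly factors. All 44 were found among the 19749 genes of the authors' deposited table, and all 44 were among the 14812 with an adjusted p-value, called tested genes here. U87 is an established human glioblastoma cell line. It was given the small molecule YZ129 at 5 µM for 24 h (n = 2 libraries) or the vehicle DMSO (n = 2 libraries), and poly(A) RNA was sequenced. The series title links YZ129 with the chaperone HSP90, the phosphatase calcineurin and the transcription factor NFAT. All cells came from 1 line, and the labels name no separate cultures for the libraries of a group. The p-values therefore measure only how far the libraries of the authors' fit vary, which may be technical, and the sources used here do not say which libraries that fit held.

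A replication origin is prepared in G1, when the origin recognition complex (ORC), CDC6 and CDT1 load the MCM helicase onto DNA. In S phase the kinases CDC7 and CDK2, with CDC45 and the GINS complex, switch the helicase on, and primase and the polymerases copy both strands behind it. Many of these genes are known targets of E2F transcription factors and are transcribed mostly around the G1 to S transition, so their mRNA in a dividing culture depends on how many cells pass through that stage. In these bulk libraries, fewer cells in S phase and less mRNA per cell cannot be told apart.

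The authors' deposited table gives 1 log2 fold change with its standard error (SE) for each gene and no level per library, so values per sample are not analysed here. It does not state which group is on top of the ratio, and its name lists DMSO before YZ129. A negative value was read as lower with YZ129, because of 25 tested genes in a heat shock list, 11 passed the threshold with positive values and 0 with negative ones. In the authors' deposited table those with the smallest adjusted p were HSPA6 at 2.64 ± 0.23, BAG3 at 0.99 ± 0.14 and HSPH1 at 0.88 ± 0.14 (log2 ± SE), all targets of the heat shock factor HSF1, which HSP90 holds in check. Under the opposite reading every fall described here becomes a rise of the same size. Having served to read the sign, the heat shock genes give no result of their own.

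Replication genes were lower with YZ129. Of the 44 genes, 23 fell with an adjusted p below 0.05 according to the authors' deposited table (Wald test, Benjamini-Hochberg adjustment over 14812 genes), 0 rose and 21 did not pass. That is 52.3% of the genes called in either direction, against 12.9% of all tested genes. In that direction alone, 7.64% of all tested genes fell, while 5.24% rose. The median log2 fold change in the authors' deposited table was -0.43 for the 44 genes, a 1.35-fold lower level, and -0.05 for all tested genes. Values were negative for 42 genes and positive for 2. The falls were moderate: among the 23 called genes they ranged from 1.94-fold (PRIM1) to 1.33-fold (RPA1), with a median of 1.51-fold. By size, 19 of the 44 genes lay in the lowest 10% of all tested fold changes in the authors' deposited table.

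Genes with high mean levels tended to slightly negative values in the whole table. The tested genes in the same level decile as a member had medians between -0.12 and -0.04 in the authors' deposited table. When each change was tested against its decile median instead of 0, 15 of the 44 genes passed, all lower, against 5.43% of all tested genes. The 8 that no longer passed were CHAF1A, GINS4, GMNN, ORC3, POLD1, RFC4, RFC5 and RPA1. The same centring moved the split of all called genes from the authors' deposited table, in which 59.3% of calls were lower and 40.7% higher, to 46.6% lower and 53.4% higher. Against the median of all tested genes, 48.1% of calls were lower and 51.9% higher.

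**Figure D1:**
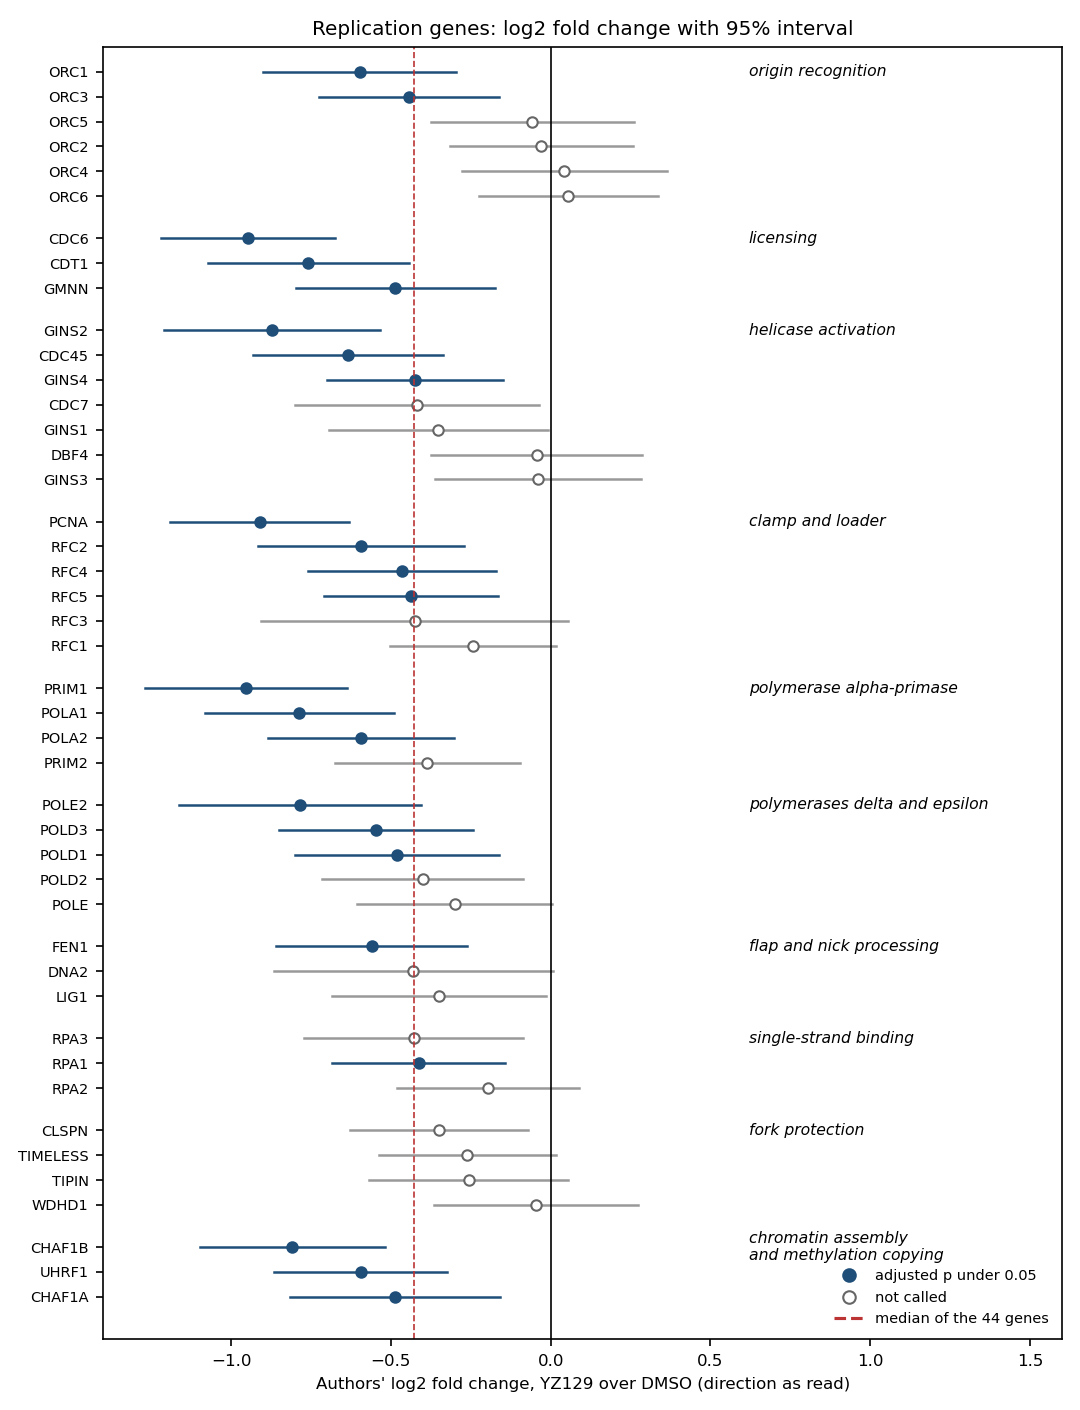
Log2 fold change of each of the 44 replication genes in the authors' deposited table (horizontal axis, YZ129 over DMSO as read), grouped by role; bars are 95% intervals from the deposited SE and the dashed line is the median of the 44 genes. The 23 filled points passed an adjusted p under 0.05 and all lie left of 0, down to PRIM1 at -0.95, while ORC2, ORC4, ORC5, ORC6, DBF4, GINS3 and WDHD1 lie close to 0.

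The 44 genes spread over more than 1 step of size. In the authors' deposited table, 8 genes lay below -0.75 on the log2 scale, and all of them fell: PRIM1, CDC6, PCNA, GINS2, CHAF1B, POLA1, POLE2 and CDT1. These act at several steps, from loading the helicase to packing new DNA into chromatin. A further 7 lay between -0.63 and -0.55 and also fell, and 22 lay between -0.49 and -0.20, of which 8 fell. The remaining 7 lay between -0.06 and 0.05 in the authors' deposited table and did not pass: ORC5, WDHD1, DBF4, GINS3, ORC2, ORC4 and ORC6. The 95% intervals of all 7 lay above the median of the 44 genes, and the lowest end of any of them allowed a 1.30-fold lower level. Because these 7 were grouped by their values, this is a description and not a test.

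The promoters of these genes were examined for letters that E2F factors are known to bind, because E2F is the classic regulator of this set. RefSeq promoter windows on GRCh38.p14, from 250 bases before to 50 bases after a start site, were found for 39 of the 44 genes (50 windows). They were searched on both strands for TTTGGCGC, TTTCGCGC, TTTCCCGC or TTTGCCGC. These letters were in a window of 18 of the 39 genes (46.2%), against 6.32% of 10435 tested genes and 3.99% of all genes with a window. By window, they were in 19 of 50 (38.0%), against 4.60% for tested genes and 3.31% for all windows. A match is a description of the sequence and no evidence of binding in U87 cells. Only these exact letters were searched, so a window without them is not shown to lack E2F sites.

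Shown first are the windows of the 3 called genes with the smallest adjusted p that hold such letters, CDC6, PCNA and POLA1, and then that of ORC2, the ORC gene closest to 0, which holds none. Capitals mark the E2F-type letters, on either strand, and each sequence runs 5′ to 3′ on the gene's own strand (RefSeq, GRCh38.p14).
CDC6 promoter, chr17:40287629-40287928, plus strand: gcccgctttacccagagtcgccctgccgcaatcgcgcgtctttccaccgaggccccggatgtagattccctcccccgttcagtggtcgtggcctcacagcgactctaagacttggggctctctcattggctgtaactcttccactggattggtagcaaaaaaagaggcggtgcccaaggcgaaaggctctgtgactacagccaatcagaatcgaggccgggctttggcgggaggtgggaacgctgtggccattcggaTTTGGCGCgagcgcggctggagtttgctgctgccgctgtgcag
PCNA promoter, chr20:5126573-5126872, minus strand: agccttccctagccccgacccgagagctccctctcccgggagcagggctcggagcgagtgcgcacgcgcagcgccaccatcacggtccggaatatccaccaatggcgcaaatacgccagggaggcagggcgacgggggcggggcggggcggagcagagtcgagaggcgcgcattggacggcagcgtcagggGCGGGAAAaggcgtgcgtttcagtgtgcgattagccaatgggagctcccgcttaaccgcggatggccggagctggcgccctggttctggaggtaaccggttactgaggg
POLA1 promoter, chrX:24693668-24693967, plus strand: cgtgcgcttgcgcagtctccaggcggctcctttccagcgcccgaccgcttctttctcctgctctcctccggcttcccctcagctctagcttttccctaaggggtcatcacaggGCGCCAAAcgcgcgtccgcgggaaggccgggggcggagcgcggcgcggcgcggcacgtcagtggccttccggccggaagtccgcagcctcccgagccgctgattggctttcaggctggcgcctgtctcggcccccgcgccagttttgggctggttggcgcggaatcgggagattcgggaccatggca
ORC2 promoter, chr2:200963611-200963910, minus strand: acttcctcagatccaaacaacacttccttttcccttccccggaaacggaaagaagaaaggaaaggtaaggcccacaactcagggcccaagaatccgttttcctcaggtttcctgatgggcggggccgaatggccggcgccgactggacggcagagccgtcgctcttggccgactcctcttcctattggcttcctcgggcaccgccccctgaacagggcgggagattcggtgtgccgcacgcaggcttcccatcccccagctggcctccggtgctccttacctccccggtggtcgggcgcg

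Counted in bases from the annotated start site, with minus for upstream, the letters begin at 7 in CDC6, at -59 in PCNA and at -137 in POLA1. PCNA has a second annotated window without the letters. Over all 39 genes there were 21 matches, 11 of TTTCCCGC, 8 of TTTGGCGC and 2 of TTTCGCGC, and 18 of the 21 began no more than 100 bases before the start site or after it. In TIPIN 2 matches overlap, since the letters read the same on both strands there.

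The letters did not follow the call. They were in a promoter window of 10 of 21 genes that fell (47.6%) and of 8 of 18 that did not pass (44.4%). Among the 7 genes close to 0, only GINS3 held them (14.3%), against 7 of the 11 other uncalled genes with a window (63.6%). This split was chosen after the values were seen and is given with no test. GINS2, which fell, and GINS3, which lay close to 0, code for subunits of 1 complex, and the stretches around the letters in their promoters hold the same letters (capitals; RefSeq, GRCh38.p14, 5′ to 3′ on the gene's strand).
GINS2, chr16:85688968-85688995, minus strand: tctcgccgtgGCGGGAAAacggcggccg
GINS3, chr16:58392456-58392483, plus strand: gtccccgggcGCGGGAAAcgagtttcaa

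A CCAAT box, the NF-Y letters, was in a window of 22 of the 39 genes (56.4%), against 43.2% of tested genes and 39.7% of all genes. The CHR letters TTTGAA or TTCGAA, known from genes of G2 and mitosis, were in 1 of the 39, DBF4 (2.56%), against 16.1% of tested genes and 19.5% of all genes. The windows were rich in G and C, with a median GC content of 65.3%, against 64.0% for windows of tested genes and 58.7% for all windows.

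**Figure D2:**
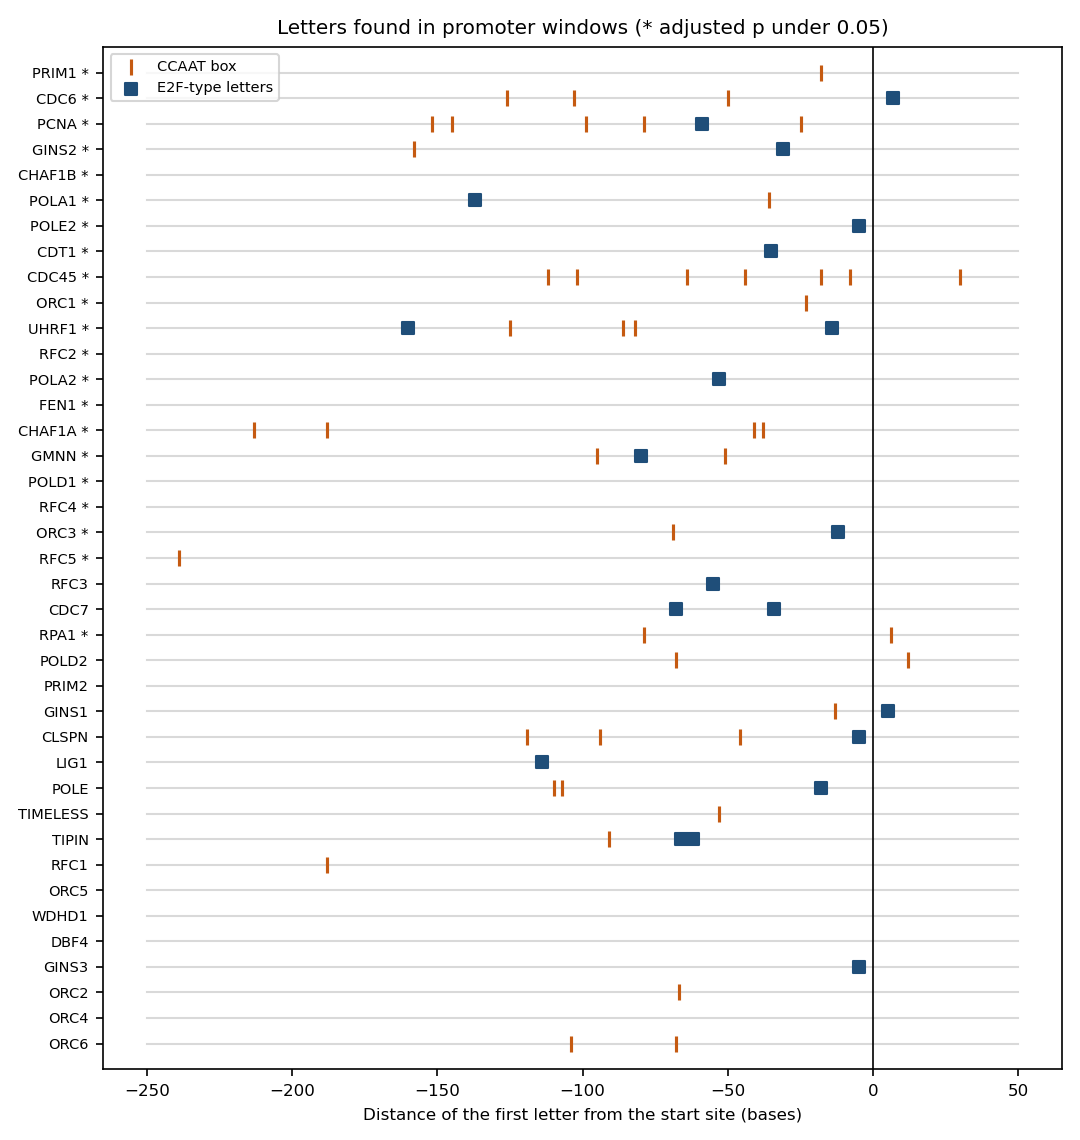
Position of E2F-type letters (squares) and CCAAT boxes (bars) in the RefSeq promoter windows of the 39 genes with a window (horizontal axis, bases from the annotated start site; 1 row for each gene, ordered by log2 fold change, with an asterisk for an adjusted p under 0.05). Windows of a gene with several start sites are laid over each other, so 1 site can show more than once. E2F-type letters lie mostly within 100 bases of the start, in 10 of 21 called genes and in 8 of 18 uncalled ones.

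The origin recognition complex was divided. ORC1, the subunit known to be made and destroyed with the cell cycle, fell 1.51-fold in the authors' deposited table (log2 -0.60 ± 0.15 SE, adjusted p = 0.00197). ORC3 fell 1.36-fold (-0.44 ± 0.14, adjusted p = 0.0209), a call that did not hold against the decile median. The other core subunits and ORC6, which binds the core loosely, did not pass. The authors' deposited table put ORC5 at -0.06 ± 0.16, ORC2 at -0.03 ± 0.15, ORC4 at 0.04 ± 0.16 and ORC6 at 0.05 ± 0.14. ORC1 was lower than ORC6 by a log2 difference of -0.65 (95% interval -1.06 to -0.24). For this and the differences below, the most negative gene of a role was set against the most positive, with the deposited SEs taken as independent and with no p-value.

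All 3 licensing genes fell, against 7.64% of all tested genes. CDC6, the ATPase that joins ORC to load MCM, stood at 51.9% of the DMSO level in the authors' deposited table (-0.95 ± 0.14, adjusted p = 8.8e-10). CDT1, which brings MCM to the origin, fell 1.69-fold (-0.76 ± 0.16, adjusted p = 7.54e-05). Geminin (GMNN), the protein that blocks CDT1 after the origin has fired, fell 1.40-fold (-0.49 ± 0.16, adjusted p = 0.0232). The GMNN call did not hold against the decile median. CDC6, whose promoter is printed above, had the smallest adjusted p of the 44 genes. The loading factors and the inhibitor were lower together, with CDC6 below GMNN by -0.46 (95% interval -0.88 to -0.05).

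Helicase activation was also divided, within 1 complex. GINS2 fell 1.83-fold in the authors' deposited table (-0.87 ± 0.17, adjusted p = 1.71e-05) and GINS4 fell 1.34-fold (-0.42 ± 0.14, adjusted p = 0.0245). GINS1 did not pass (-0.35 ± 0.17, adjusted p = 0.184), and GINS3 lay at -0.04 ± 0.16. The GINS4 call did not hold against the decile median, and its value was close to that of GINS1. The 4 proteins form a complex with 1 copy of each, and GINS2 was below GINS3 by -0.83 (95% interval -1.30 to -0.37), the most negative of the 10 differences computed. CDC45, the partner of GINS in the active helicase, fell 1.55-fold (-0.63 ± 0.15, adjusted p = 0.000683). In the authors' deposited table the kinase CDC7 (-0.42 ± 0.19, adjusted p = 0.149) and its activator DBF4 (-0.04 ± 0.17) did not pass.

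The sliding clamp had a more negative value than each of its loader's subunits. PCNA, the ring that tethers polymerases to DNA, stood at 53.2% of the DMSO level in the authors' deposited table (-0.91 ± 0.14, adjusted p = 1.83e-08). Of the 5 loader subunits, RFC2 fell 1.51-fold (-0.59 ± 0.16), RFC4 1.38-fold (-0.47 ± 0.15) and RFC5 1.35-fold (-0.44 ± 0.14), with adjusted p of 0.00468, 0.0199 and 0.0184. The RFC4 and RFC5 calls did not hold against the decile median. RFC3, at -0.43 ± 0.24, had the largest SE of the 44 genes and did not pass (adjusted p = 0.271). RFC1, the large subunit, did not pass either (-0.24 ± 0.13, adjusted p = 0.238), and PCNA was below it by -0.67 (95% interval -1.05 to -0.28).

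Polymerase alpha-primase, which starts each new strand, had the lowest gene of the 44. PRIM1, the catalytic primase subunit, fell 1.94-fold in the authors' deposited table (-0.95 ± 0.16, adjusted p = 2.32e-07). POLA1, the catalytic polymerase subunit, fell 1.72-fold (-0.79 ± 0.15, adjusted p = 9.83e-06), and POLA2, the accessory subunit, fell 1.51-fold (-0.59 ± 0.15, adjusted p = 0.00136). PRIM2, the large primase subunit, was at -0.39 ± 0.15 and did not pass (adjusted p = 0.0628). PRIM1 was below PRIM2 by -0.57 (SE 0.22; upper end of the 95% interval -0.14).

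Of the polymerases that extend the strands, 3 of 5 genes fell. POLE2, the second subunit of the leading-strand polymerase epsilon, fell 1.72-fold in the authors' deposited table (-0.78 ± 0.19, adjusted p = 0.00107), while its catalytic subunit POLE did not pass (-0.30 ± 0.16, adjusted p = 0.211). The difference between them, -0.48, had a 95% interval of -0.97 to 0.004. For the lagging-strand polymerase delta, the catalytic subunit POLD1 fell 1.40-fold (-0.48 ± 0.16, adjusted p = 0.0294) and POLD3 fell 1.46-fold (-0.55 ± 0.15, adjusted p = 0.00608). The POLD1 call did not hold against the decile median or the median of all tested genes. POLD2 was at -0.40 ± 0.16 in the authors' deposited table and did not pass (adjusted p = 0.0790).

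Okazaki fragment processing and single-strand binding each had 1 called gene of 3 (33.3%), against 12.9% of all tested genes. Their medians, -0.43 and -0.41, were close to the -0.43 of the 44 genes. FEN1, the nuclease that trims the flap, fell 1.47-fold in the authors' deposited table (-0.56 ± 0.15, adjusted p = 0.00375). The nick-sealing ligase LIG1 (-0.35 ± 0.17, adjusted p = 0.174) and the nuclease and helicase DNA2 (-0.43 ± 0.22, adjusted p = 0.210) did not pass. FEN1 minus LIG1 was -0.21 (95% interval -0.66 to 0.24), so their changes could not be distinguished. Of the single-strand binding protein RPA, the large subunit RPA1 fell 1.33-fold (-0.41 ± 0.14, adjusted p = 0.0274), which was the smallest called change of the 44. The RPA1 call did not hold against the decile median or the median of all tested genes. RPA3 had a value of like size with a larger SE in the authors' deposited table (-0.43 ± 0.18, adjusted p = 0.0878) and RPA2 was at -0.20 ± 0.14 (adjusted p = 0.425).

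The fork protection genes were the only role with 0 called genes. With 4 genes, that count is near the 12.9% called among all tested genes, so it is no result about the role. All 4 values were negative, with a median of -0.26 in the authors' deposited table. CLSPN, the adaptor that carries the ATR signal to CHEK1, was at -0.35 ± 0.14 in the authors' deposited table (adjusted p = 0.0860) and was the 1 gene of the 4 with an unadjusted p under 0.05. TIMELESS and TIPIN, which form a dimer that travels with the fork, were both at -0.26, with adjusted p of 0.234 and 0.318, and WDHD1, which links polymerase alpha to the helicase, was at -0.05 ± 0.16. CLSPN minus WDHD1 was -0.30 (95% interval -0.73 to 0.12).

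All 3 genes that restore chromatin behind the fork fell, against 7.64% of all tested genes. CHAF1B, a subunit of the histone chaperone CAF-1 that PCNA recruits, fell 1.75-fold in the authors' deposited table (-0.81 ± 0.15, adjusted p = 2.19e-06), and its partner CHAF1A fell 1.40-fold (-0.49 ± 0.17, adjusted p = 0.0330). The CHAF1A call did not hold against the decile median or the median of all tested genes. UHRF1, which guides the methyltransferase DNMT1 to newly copied DNA, fell 1.51-fold (-0.59 ± 0.14, adjusted p = 0.000398). CHAF1B minus CHAF1A was -0.32 (95% interval -0.76 to 0.12). Over the 10 roles, 5 of these differences had intervals that left out 0 and 5 did not, and both genes of each pair had been picked as extremes.

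A gene that missed the threshold is not shown to be unaltered. Outside the 7 genes close to 0, the 14 uncalled genes all had negative values in the authors' deposited table, between -0.43 and -0.20, and 7 of them had an unadjusted p under 0.05. CDC7, DNA2, RFC3 and RPA3 were more negative than RPA1, which passed.

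The genes were well measured. Their mean levels in the authors' deposited table ran between 312 (POLE2) and 5512 normalized counts (UHRF1), with a median of 1945, and their SEs between 0.13 and 0.24. Of the 8344 tested genes within that range of levels, 782 fell (9.37%) and 414 rose, so 14.3% were called, with a median log2 fold change of -0.08. Divided by exon length, PCNA had the highest level of the 44 in the authors' deposited table, at 2743 normalized counts per kb, followed by POLD2 at 2308 and FEN1 at 2004. The lowest were DNA2 at 136, POLE2 at 140 and LIG1 at 163 normalized counts per kb. The mean levels were taken over 8 libraries, 4 beyond the YZ129 and DMSO libraries described, and exon lengths come from GENCODE 29, since the sources used here do not name the authors' annotation.

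**Figure D3:**
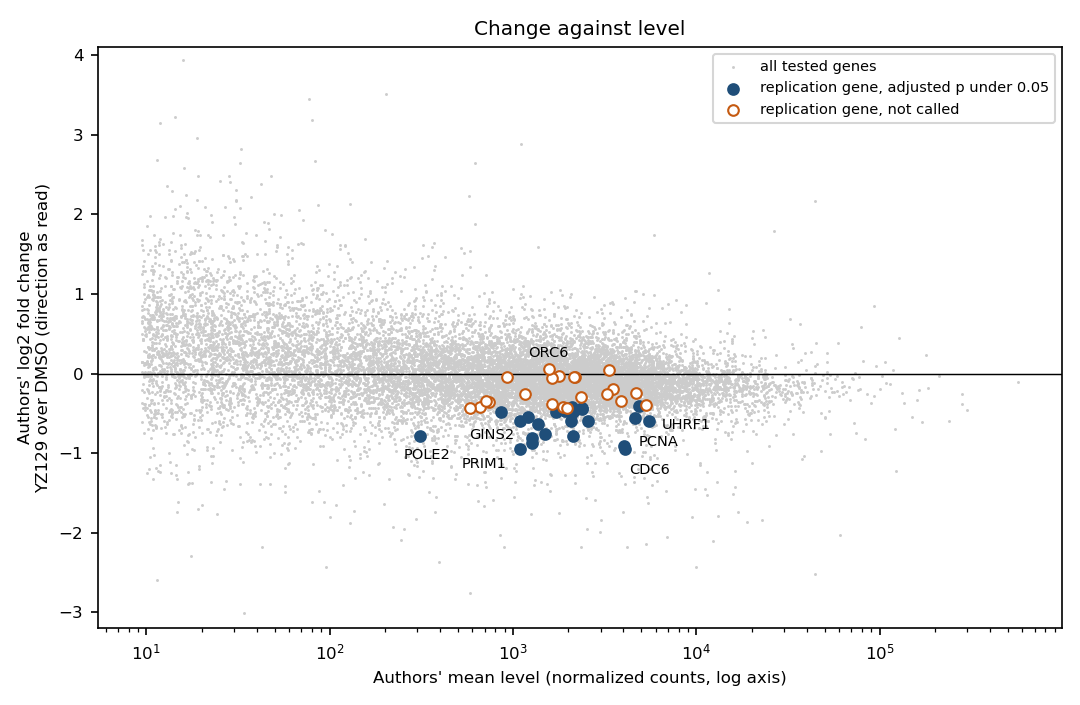
Log2 fold change against mean level (log axis, normalized counts) in the authors' deposited table, for the 14812 tested genes (grey) and the 44 replication genes (filled where the adjusted p was under 0.05, open where not). The replication genes lie between 312 and 5512 normalized counts, where tested genes run from -2.76 to 2.89 in log2 fold change. Of the 44 genes, 38 lie below the median of all tested genes.

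Some neighbours could share reads with these genes. In GENCODE 29, 16 of the 44 genes had exons that overlap those of another gene, 14 of them on the opposite strand, and 12 shared at least 100 bases. POLA2 shared 2012 exon bases with a coding gene on its own strand and GINS4 shared 1159 with an antisense gene. POLD1 shared 426, and PRIM1, the lowest gene of the 44, shared 362, each with a coding gene on its own strand. The labels do not say that reads were counted by strand, so the values of these genes carry that doubt. A further source is pseudogenes: 7 of the 44 genes, PCNA among them, have at least 1 that bears their name.

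Among the other lists of replication and cell cycle genes, the MCM list had the lowest median. All 8 genes of the MCM list (MCM2 to MCM7, MCM10 and MCMBP) fell, with a median log2 fold change of -0.68 in the authors' deposited table, among them MCM6 (-1.08 ± 0.14), MCM5 (-1.03 ± 0.15) and MCM7 (-0.71 ± 0.15). Of 13 genes of nucleotide supply, 61.5% were called against 12.9% of all tested genes: 8 fell and 0 rose (median -0.40). The genes that fell included TK1 (-0.67 ± 0.15), which salvages thymidine, and DUT (-0.69 ± 0.16), which removes dUTP. SAMHD1, which instead degrades dNTPs, fell with them (-0.57 ± 0.15).

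Genes around initiation and the fork gave fewer calls. Of 17 other initiation genes, 35.3% were called against 12.9% of all tested genes: 5 fell and 1 rose (median -0.30). In the authors' deposited table these included CCNE2, a cyclin of the G1 to S transition, at -1.14 ± 0.23, and SKP2, which marks CDT1 and p27 for destruction, at -0.68 ± 0.18. DBF4B, the second activator of CDC7, rose (0.61 ± 0.17, adjusted p = 0.00598), whereas DBF4 lay at -0.04. Of 14 further chromatin genes at the fork, 3 fell (ASF1B at -0.78 ± 0.16, RBBP4 at -0.49 ± 0.14 and TONSL at -0.45 ± 0.16) and 0 rose, with a median of -0.39 in the authors' deposited table. That is 21.4% called, not far above the 12.9% of all tested genes for a list of 14, so the count is no result about the list. Of these 14 values 13 were negative. An unadjusted p under 0.05 was found for 11 of them, against 3694 of the 14812 tested genes. Of 15 other polymerase, loader and topoisomerase genes, 2 fell, TOP2A (-1.42 ± 0.15) and RNASEH2A (-0.49 ± 0.16), and of 12 checkpoint genes 2 fell, WEE1 (-0.59 ± 0.16) and CHEK2 (-0.45 ± 0.16). These shares called, 13.3% and 16.7%, are near the 12.9% of all tested genes and the 14.3% of those at the levels of the 44 genes, so they are no result about either list.

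The regulators of the cell cycle moved in the same direction in part. Of 18 regulators of the G1 to S transition, 33.3% were called against 12.9% of all tested genes: 6 fell and 0 rose (median -0.26). In the authors' deposited table they included the repressor E2F8 (-1.14 ± 0.16) and the activator E2F2 (-1.01 ± 0.18), along with RBL1 (-0.83 ± 0.18), a relative of the retinoblastoma protein that holds E2F targets silent. Of 30 genes of G2 and mitosis, 8 fell and 0 rose (26.7% called), among them CDK1 (-1.39 ± 0.20), UBE2C (-1.32 ± 0.17) and NUSAP1 (-0.89 ± 0.14). Their median was -0.14 in the authors' deposited table, so single large falls stood beside many small values. Of 20 ribosomal protein genes, listed as a set not tied to replication, 0 were called by the authors' Wald test and 0 had an unadjusted p under 0.05, although all 20 values were negative (median -0.15). No test was made between the lists.

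**Figure D4:**
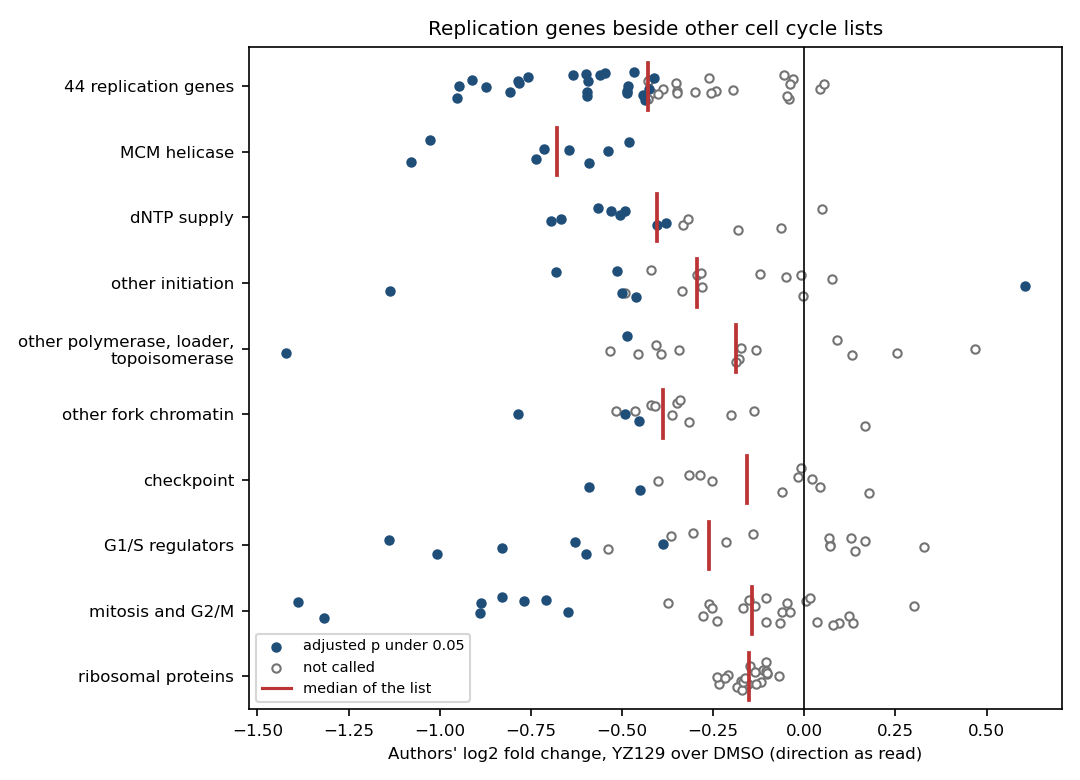
Log2 fold change of every tested gene in the replication set and in the comparison lists of the authors' deposited table (points; filled where the adjusted p was under 0.05), with the median of each list. The replication genes have a median of -0.43, the MCM genes -0.68 and the genes of G2 and mitosis -0.14.

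The label of the cells was set beside markers. The mean levels were taken over 8 libraries, 4 beyond those described, so they cannot check the label of the described libraries alone. In the authors' deposited table, VIM and CD44 stood at mean levels of 298885 and 134994 normalized counts, while SOX2 (0.851) and GFAP (52.2) were near 0 by comparison. EGFR stood at 6255, CHI3L1 at 4151, NES at 909, OLIG2 at 96.2, FABP7 at 15.5 and S100B at 1.12 normalized counts. MTAP, which U87 is known to lack, was at 7.28 normalized counts, and CDKN2A, also lacking in U87, was not listed. Of the glioblastoma markers, 8 of 10 were tested and 3 fell: NES (-0.59), VIM (-0.46) and CD44 (-0.38). That is 37.5% called, against 12.9% of all tested genes. Epithelial markers stood at 93.7 normalized counts or less and endothelial ones at 24.6 or less. Of the 5 blood markers, CD68 stood highest, at 12821 normalized counts, and did not pass (-0.18 ± 0.17), LCP1 at 1213 rose (0.69 ± 0.15), and CD14 (11.99), PTPRC (2.28) and CD3E (0.43) had low levels. Of the 4 neuronal markers in the authors' deposited table, TUBB3 (-1.84 ± 0.16) and SNAP25 (-1.43 ± 0.17) fell, at levels of 3031 and 716 normalized counts, SYT1 at 408 did not pass (0.04 ± 0.19) and RBFOX3 at 3.90 was not tested. Of the blood list 33.3% and of the neuronal list 66.7% were called, each with only 3 tested genes. The marker lists are short, so their counts are no result about the type of the cells. The part of the marker genes in the values of the replication genes was not tested.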

How the data were processed

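Poly(A) RNA of U87 cells was sequenced in 4 libraries, 2 with YZ129 and 2 with DMSO, grouped by their titles. Per the submitters' processing notes, the build was hg19 and the tools included Cuffdiff, Cufflinks 2.2.1 and TopHat2 2.0.12. Per the file headers, the columns are those of a DESeq2 results table, and the sources used here do not name its version, read counter or annotation. For each gene the authors deposited a mean level, a normalized signal (counts divided by size factors). They also deposited a log2 fold change with its SE on the log2 scale, a Wald score and a p-value with its adjusted p. On these rows the deposited score equalled log2 fold change over SE, the p-value its two-sided normal p, and the adjusted p a Benjamini-Hochberg adjustment over 14812 genes. The other 4937 genes (25.0%), all with a level of 9.43 or less, had none and were left out.

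The authors' mean level covers 8 libraries, 4 beyond those described. This follows from the levels of 525 genes with 2 reads, which took 36 distinct values, all of them sums of 2 of 8 fixed steps (tolerance 1e-07). The sources used here do not say whether the others entered the SEs. The deposited log2 fold changes had been moderated towards 0: genes with 2 reads in 1 library had a median size of at most 0.55. Reads per library were not analysed here, so depth is unknown and no interval on counts is given. No column of values per sample was left unused (0 columns).

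The authors' adjusted p under 0.05 was the call. Intervals of 95% were taken from the deposited SEs. Members, roles and lists come from textbook knowledge and were chosen with earlier results of these data known, so no test was made over a list. The text names every member, and for each other list up to 3 called genes with the smallest adjusted p. Promoters shown in full are those of the 3 members with the smallest adjusted p that hold E2F-type letters and of the ORC gene closest to 0; the GINS stretches and the group of 7 genes close to 0 were chosen after the values were seen. Alternatives were a stricter threshold, a minimum size, a wider adjustment, centring on medians and minimum levels. The test steps were tested on simulated data. Promoter windows and letters come from RefSeq on GRCh38.p14; these coordinates were not joined to the hg19 values other than by symbol. Proteins were not analysed here. Python 3.11.15, pandas 2.3.3, numpy 2.4.6, scipy 1.17.1 and matplotlib 3.10.9 were used.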

Additional observations from a re-analysis of the deposited data

How the results depend on the processing

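The 23 falls and 0 rises among the 44 replication genes were recounted under 6 alternatives, and no gene rose under any of them. The number that fell was 15 at an adjusted p under 0.01, 15 with a log2 fold change of at least 0.5 in size and 15 when tested against the median of the level decile. The 8 genes lost were the same in all 3: CHAF1A, GINS4, GMNN, ORC3, POLD1, RFC4, RFC5 and RPA1. Of all tested genes, 4.71%, 5.84% and 5.43% fell under these 3 alternatives. Tested against the median of all tested genes, 19 fell, without CHAF1A, GINS4, POLD1 and RPA1. In that setting 5.97% of all tested genes fell. Adjusting over all 19749 genes, or testing only genes at a level of at least 100, left 23. Of all 19749 genes 5.18% fell, and of the genes at that level 9.85% fell. The median log2 fold change of -0.43 was -0.38 less the median of all tested genes, -0.34 less the decile medians, -0.44 as a weighted mean and -0.44 for the 37 genes at a level of at least 1000. No paired analysis was possible because the authors' deposited table holds no values per library, and leaving out each library was not run for the same reason. The 95% intervals of the uncalled genes limit what could be detected, and the direction rests on the heat shock list.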
